A study of Homo sapiens with 8 samples.

Results

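SNAP47, SNAP23, SNAP25 and SNAP29 are the SNAP family of membrane fusion genes, and their transcripts were examined for RBFOX2 binding by eCLIP (enhanced crosslinking and immunoprecipitation) in HEK293T cells, an established human embryonic kidney line. The members were the peaks whose midpoint lay in the RefSeq span of 1 of the 4 genes, on the strand of that gene. They numbered 80, 84, 90 and 83 peaks in replicates 1 to 4, of 267691, 281701, 288305 and 280619 called peaks, which is 337 of 1118316 in all. SNAP47, SNAP23 and SNAP29 stand among 11969 genes with a known strand and at least 1 called peak. SNAP25 does not, as it had neither. The series holds 8 libraries, 4 RBFOX2 immunoprecipitates (IP) and their 4 inputs, all from UV-crosslinked cells (254 nm, 400 mJ per square cm), with 2% of each sample kept as input. Nothing in the labels says that the 4 replicates came from separate cultures, and no untreated or RBFOX2-depleted group is among the samples. By its title the series asks how reproducible such signals are across several replicates.

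Members of the family supply both the Qb and the Qc helix of a SNARE bundle, the coiled complex that pulls a vesicle membrane onto its target membrane, where a syntaxin supplies the Qa helix and a VAMP the R helix. SNAP25 acts in neurotransmitter release, SNAP23 is its widely expressed counterpart in exocytosis, SNAP29 acts in the fusion of autophagosomes with lysosomes, and SNAP47 is a widely expressed member without the palmitoylated membrane anchor of SNAP25. RBFOX2 is a splicing factor that binds GCATG in RNA and promotes or represses nearby exons according to which side of them it binds.

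Each deposited peak carries a log2 fold of IP over its paired input and a −log10 p for that comparison. The fold says how much more of a stretch was recovered in the IP than in the input, so it is no level of the transcript, and no read counts or depths were given with it. A peak was called enriched here when both its log2 fold and its −log10 p reached 3. The members were chosen by these same values, SNAP47 for the high fold of its leading region and the other genes as its family, so everything below is a description without a test. The commonest fold in each list is that of a peak with no difference from input, −0.000866, 0.00141, 0.000771 and −0.000497 in replicates 1 to 4.

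The letters GCATG occur in 2 of the 6 promoter windows that RefSeq (GRCh38.p14) gives for 3 of the genes (4 for SNAP47 and 1 each for SNAP23 and SNAP29), in the sense direction, each window running from 250 nt before to 50 nt after an annotated start. These 2 stretches are shown, on the plus strand with GCATG in capitals, because they hold the only sense-strand matches to the RBFOX2 motif in the member sequence used here.
SNAP47 chr1:227735398-227735422: gggcctgcacGCATGcgcgcggctc
SNAP23 chr15:42495440-42495464: aatgtttattGCATGaacacctccc
The first lies 27 nt before a start at position 227735435 of chromosome 1, and the second 184 nt before the start at position 42495634 of chromosome 15. Both are promoter DNA ahead of these 2 starts, so neither lies in RNA made from them. Both lie inside the span of their gene, however. The SNAP47 stretch lies past the annotated starts at 227728631 and 227734996, and the SNAP23 stretch past its span start at 42491129. RNA begun at those positions could hold them. Over all promoter windows, 6877 of 35116 (19.6%) held GCATG on the sense strand and 29.5% on either strand, against 3 of the 6 member windows on either strand. Called peaks overlapped the SNAP47 window with the motif in 1 list, at a log2 fold of −0.42, and the SNAP23 window in 3 lists, at folds between −0.999 and −0.000497. None of these peaks reached the 2 stretches shown. No enriched peak lay in any of the 6 windows. The sequence under the enriched SNAP47 peaks was not analysed here.

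SNAP47 (gene ID 116841) spans chr1:227728168-227781226 on the plus strand (53059 nt) and was the one member with enriched peaks. It had 61, 64, 69 and 66 called peaks in replicates 1 to 4, a mean of 65 ± 3.37 (SD, n = 4). Of these, 22, 23, 27 and 29 were enriched, a mean of 25.25 ± 3.30, or 38.8 ± 3.75% of its called peaks (36.1, 35.9, 39.1 and 43.9%). Over all called peaks the enriched share was 0.861, 0.848, 0.789 and 0.775%. The 4 lists lay close together: the highest count of enriched SNAP47 peaks, in replicate 4, was 29 against 22 in the lowest, replicate 1. By the mean number of enriched peaks SNAP47 ranked 7 of the 11969 genes, tied with PFKP (a phosphofructokinase, named after its value was seen), and by the share enriched 11 of the 2948 genes with at least 20 called peaks in each list. Of its enriched peaks, 14.75 ± 1.71 per list were touching pieces of the leading region described below. Both ranks therefore depend on how finely that 1 signal was cut. By regions enriched in all 4 replicates, merged as described below, SNAP47 held 3 and ranked 31.

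SNAP23 (gene ID 8773), the exocytic member, spans chr15:42491129-42533058 on the plus strand (41930 nt). It had 11, 9, 9 and 9 called peaks, a mean of 9.5 ± 1, and 0 enriched. SNAP29 (gene ID 9342), the autophagosomal member, spans chr22:20859007-20891214 on the plus strand (32208 nt). It had 8, 11, 12 and 8 called peaks, a mean of 9.75 ± 2.06, and 0 enriched. Both lay near the middle of the 10503 coding genes with a known strand and at least 1 called peak, whose median was 11.5 called peaks. SNAP23 had more than 43.9% of these genes and SNAP29 more than 44.6%, whereas SNAP47 had more than 94.1%. Coding genes without a called peak are not in this count. SNAP25 (gene ID 6616), the neuronal member, spans chr20:10218830-10307418 (88589 nt) and held no called peak on either strand in any list. How much of each transcript was present was not analysed here, so an absent peak cannot be read as absent binding.

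Scaled to gene length, SNAP47 had 12.3 ± 0.634 called peaks per 10 kb, SNAP29 3.03 ± 0.640 and SNAP23 2.27, so the order of SNAP29 and SNAP23 was the only one close to the spread between lists.

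**Figure D1:**
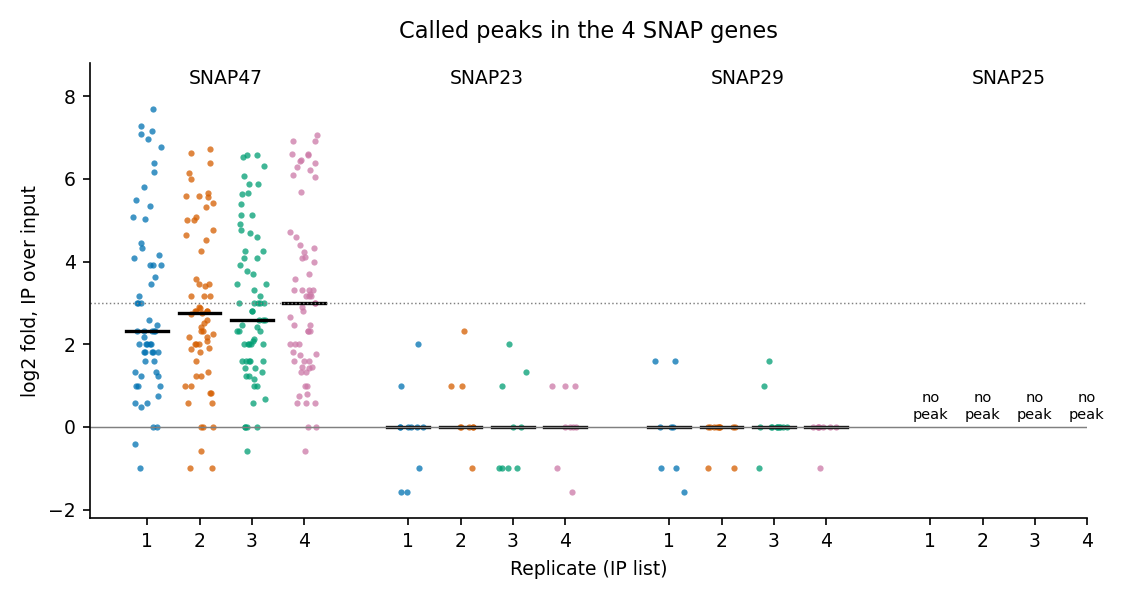
Log2 fold of IP over input (vertical axis) for each called peak of the 4 genes, by replicate (horizontal axis). Points of SNAP47 reach 7.69, those of SNAP23 and SNAP29 stay at or below 2.32, and SNAP25 has no peak.

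The bulk of the SNAP47 peaks, not only its highest ones, lay above input. The median log2 fold of its called peaks was 2.32, 2.75, 2.59 and 2.9995 in replicates 1 to 4, a mean of 2.66 ± 0.29. The median over SNAP23 and over SNAP29 peaks equalled the commonest fold of the list in each replicate, which is also the median over all called peaks. By its median SNAP47 ranked 12 of the 2948 genes with at least 20 called peaks. At least 2-fold over the commonest fold were 227 of 260 SNAP47 peaks (87.2 ± 2.28% per list), 11 of 38 SNAP23 peaks (29.5 ± 7.58%) and 4 of 39 SNAP29 peaks (10.4 ± 12.5%), against 28.9, 27.5, 25.9 and 27.3% of all called peaks in replicates 1 to 4. SNAP23 thus stood at about the share of all peaks.

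The largest fold of any SNAP47 peak was 7.69, 6.72, 6.59 and 7.05, and its largest −log10 p was 60.0, 38.3, 44.4 and 54.1. SNAP23 reached folds of 2.00, 2.32, 2.00 and 1.00, with a −log10 p of at most 0.904. SNAP29 reached 1.58, 0.00141, 1.59 and −0.000497, with a −log10 p of at most 0.426. In every list the largest SNAP47 fold was more than 4 log2 units above the largest SNAP23 or SNAP29 fold. A −log10 p of 0 was recorded for 24 of 260 SNAP47 peaks, 30 of 38 SNAP23 peaks and 35 of 39 SNAP29 peaks (9.23, 78.9 and 89.7%). Over all called peaks it was 80.2, 66.3, 68.2 and 81.8% in replicates 1 to 4. By list it was 10 of 11, 6 of 9, 6 of 9 and 8 of 9 SNAP23 peaks. These shares were above those of all peaks in replicates 1 and 4 and close to them in replicates 2 and 3.

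The enriched peaks of SNAP47 lay in the last part of the gene. The first 35 kb of its span held 6, 8, 7 and 7 called peaks in replicates 1 to 4 and 0 enriched ones, and no list had a called peak in the first 5 kb. The annotated SNAP47 starts at 227734996, 227735435 and 227735695 lie past these 5 kb, and only that at 227728631 lies within them. Between 35 and 40 kb from the span start, 13 of 15, 15 of 17, 16 of 16 and 17 of 19 called peaks were enriched. Their median log2 fold was 6.17, 5.56, 5.65 and 6.28, a mean of 5.92 ± 0.36. The signal was lower in each list from there on. Between 40 and 45 kb 7 of 11, 7 of 15, 9 of 14 and 9 of 10 were enriched, with a median fold of 3.43 ± 0.42. Between 45 and 50 kb the median was 1.64 ± 0.25, with 1, 0, 0 and 1 enriched peaks of 17, 10, 18 and 14. In the remaining stretch to the span end the median was 2.28 ± 0.22, with 1, 1, 2 and 2 enriched of 12, 14, 14 and 16. The 4 medians of each of these last 4 stretches did not overlap with those of its neighbour. The stretch from 35 to 40 kb holds the leading region that SNAP47 was chosen for, so its height over the next was built in. How often neighbouring stretches of other genes separate in this way was not analysed here.

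**Figure D2:**
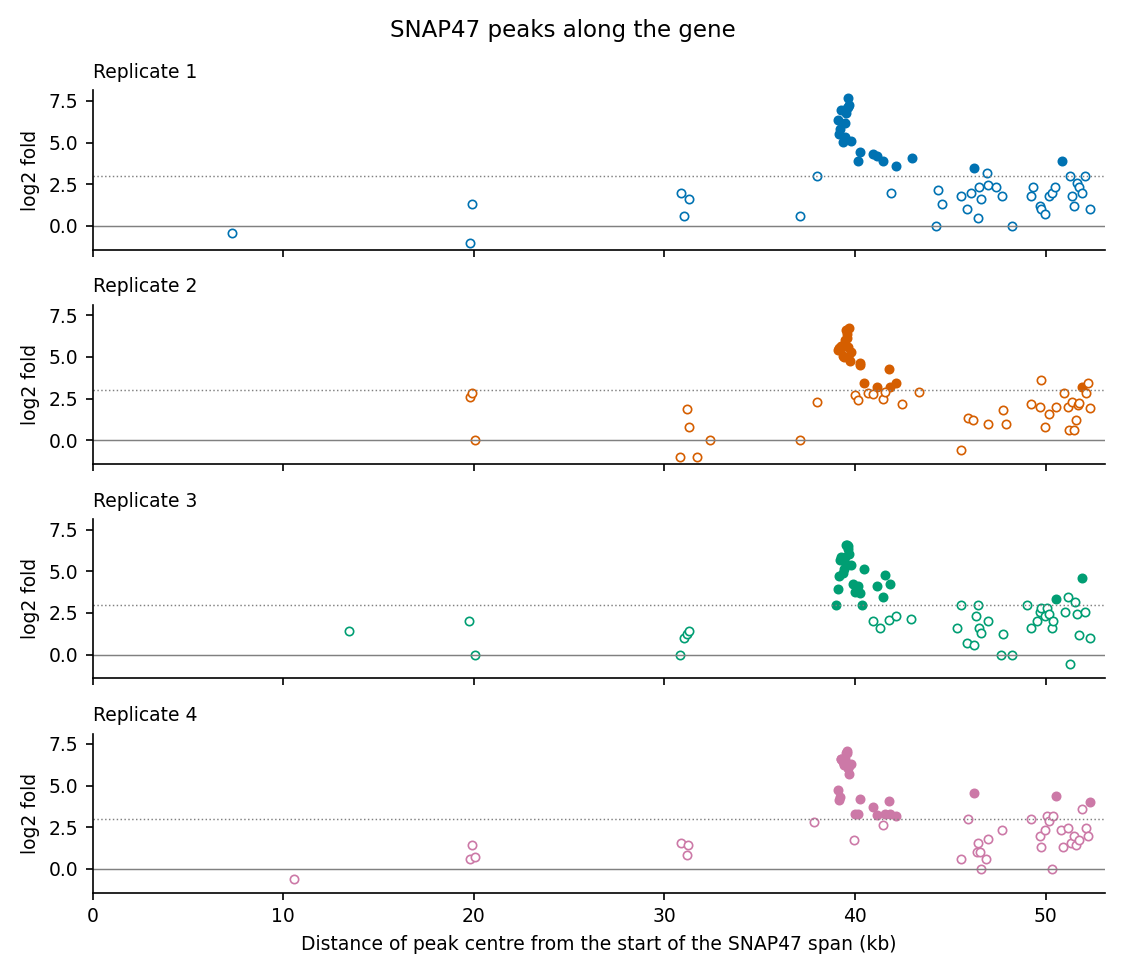
Log2 fold of each called SNAP47 peak (vertical axis) against the distance of its midpoint from the start of the span in kb (horizontal axis), by replicate. The highest points of all 4 replicates stand between 35 and 40 kb, and no enriched peak lies before 35 kb.

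Merged over the lists by at least 1 nt of overlap, the enriched SNAP47 peaks formed 21 regions. They occupied the stretch from 38952 nt after the span start to 675 nt before its end, 13432 nt or 25.3% of the span, and covered 2344 nt of it. Of the 21, 3 were enriched in all 4 replicates, 3 in 3, 9 in 2 and 6 in 1. Over the whole lists, inside or outside genes, 552 of 3371 regions (16.4%) were enriched in all 4 replicates, so the 3 of 21 in SNAP47 are near that background. Without replicate 1 the count was 6, because the leading region described next then came apart into 3 pieces (612, 40 and 175 nt), at 2 cuts that replicates 2, 3 and 4 share and that peaks of replicate 1 bridge by 1 nt each. The other 3 of these 6 regions were the remaining 2 of the 3 and chr1:227769973-227770057. Only 232 of 11969 genes (1.94%) held any region enriched in all 4, of which 61.6% held 1, and SNAP47 with its 3 ranked 31.

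The leading region, chr1:227767187-227768013 on the plus strand, was 827 nt long as merged over all 4 lists, began 39019 nt from the span start and had its centre at 74.3% of the span. In each replicate, its peak with the highest −log10 p had a log2 fold of 7.69, 5.58, 6.31 and 6.04, a mean of 6.41 ± 0.91. Replicate 1 was highest and replicate 2 lowest. The region ranked 9 of the 552 by mean fold and also 9 by length, the median length being 204.5 nt. Whether it lies in an exon, an intron or a UTR was not analysed here.

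The 4 lists placed the peak with the highest −log10 p at nearly one position. It was 227767799-227767838 in replicates 2, 3 and 4, and 227767800-227767839 in replicate 1. Its −log10 p was 60.0, 38.3, 44.4 and 54.1, a mean of 49.2 ± 9.72, which ranked 18, 36, 22 and 15 within the lists. As ratios to the commonest fold these peaks stood at 207, 47.7, 79.5 and 66. The peak with the highest fold was this one in replicate 1 alone: in replicate 2 it was 227767839-227767884 (6.72), in replicate 3 227767674-227767721 (6.59) and in replicate 4 227767720-227767753 (7.05). The ratio to the commonest fold was also taken for every peak of the leading region. By replicate, 11 of 13, 11 of 15, 10 of 14 and 14 of 17 lay within 0.01 of a whole number. Whether so few input reads stand under these folds that they move in steps was not tested, as no read counts were given.

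The leading region was covered end to end. It held 13, 15, 14 and 17 called peaks in replicates 1 to 4, all enriched and each touching the next, which together covered 789, 807, 827 and 807 nt (807.5 ± 15.5). The region was merged from enriched peaks, so high folds in it were built in. The lowest fold among its peaks was 5.02, 4.76, 3.93 and 4.11 (4.45 ± 0.52), and the median was 6.37, 5.58, 5.77 and 6.37 (6.02 ± 0.41). The lists also cut the region at like places: 42 of 118 peak ends (35.6%) lay within 2 nt of an end in each of the other lists, against 548 of 9384 (5.84%) over the regions enriched in all 4. A cut between touching peaks counts as 2 ends. The leading region holds more peaks than those regions do on average, so the 2 shares do not compare like ends. Peaks of a region share reads and a source, so they are not replicates of each other.

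**Figure D3:**
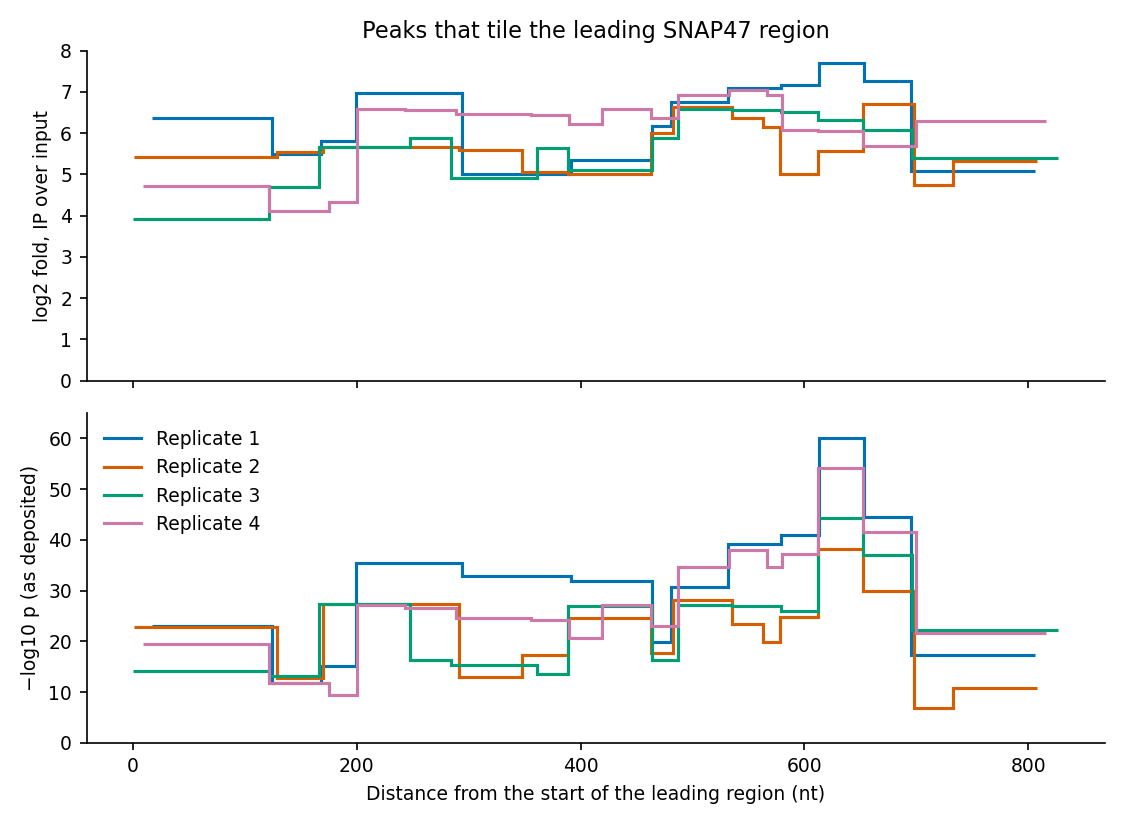
Log2 fold (vertical axis) of the peaks tiling the leading SNAP47 region against the distance from its start in nt (horizontal axis), by replicate, each peak drawn over its own length, with the −log10 p of the same peaks in the lower panel. The lowest fold is 3.93, in replicate 3, in a region merged from peaks with a fold of at least 3.

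The other regions enriched in all 4 replicates were short and lower. The region chr1:227768402-227768465 (64 nt) had log2 folds of 4.46, 4.65, 3.70 and 4.22, a mean of 4.26 ± 0.41, with a −log10 p of 10.5, 6.38, 8.52 and 12.9. The region chr1:227769285-227769366 (82 nt) had folds of 4.17, 3.17, 4.09 and 3.22, a mean of 3.66 ± 0.54, with a −log10 p of 8.27, 6.99, 7.99 and 5.33. In each replicate both lay below the peak with the highest −log10 p in the leading region, whose lowest fold was 5.58, but not below all of its peaks: in replicate 4 the 64 nt region (4.22), and in replicate 3 the 82 nt region (4.09), stood above the lowest peak of the leading region (4.11 and 3.93).

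The regions enriched in 3 replicates each had a called peak in the remaining list that fell short of the limit on fold or on −log10 p. At chr1:227768303-227768349 replicate 2 was the low one, with folds of 3.91, 2.42, 4.09 and 3.32 (3.43 ± 0.75). At chr1:227769973-227770057 it was replicate 1, with folds of 2.00, 3.17, 4.25 and 3.32 (3.19 ± 0.92). At chr1:227770273-227770344 it was replicate 3, with folds of 3.62, 3.46, 2.32 and 3.17 (3.14 ± 0.58). No single list accounted for the loss in these 3 regions. More variable was chr1:227774314-227774468, with folds of 3.46, 1.22, 0.59 and 4.58 (2.46 ± 1.88), where replicates 1 and 4 were high and replicates 2 and 3 low. The last region of the gene, chr1:227780479-227780551, was enriched in replicate 4 alone, with folds of 1.00, 1.91, 1.00 and 4.00.

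Some SNAP47 peaks lay close to the threshold on either measure. The enriched peaks with the lowest −log10 p stood at 3.29, 3.66, 3.14 and 3.56 in replicates 1 to 4. With a fold of 3 or more but below the limit on −log10 p were 1, 2, 5 and 3 peaks, with a −log10 p of at most 1.67, 2.74, 2.47 and 2.47. On the fold side, the lowest enriched peaks stood at 3.46, 3.17, 3.0008 and 3.17. Past the limit on −log10 p but short of that on fold were 0, 3, 1 and 1 peaks, the highest at 2.88, 2.32 and 2.66 in replicates 2, 3 and 4.

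Outside the leading region, SNAP47 was still raised downstream of it. After it lay 40, 39, 47 and 41 called peaks (41.75 ± 3.59), of which 9, 8, 12 and 12 were enriched (10.25 ± 2.06), with a median log2 fold of 2.32 ± 0.17. Before it lay 8, 10, 8 and 8 called peaks, of which 0, 0, 1 and 0 were enriched, with a median of 0.95 ± 0.39.

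Sites that did not depend on the enrichment limit were also compared by merging all called peaks. SNAP47 had 73 such sites, of which 27 (37.0%) were called in all 4 lists, against 49493 of 701159 (7.06%) over the whole lists. Of the 27, 10 averaged a log2 fold of 3 or more (37.0%), against 1574 of 49493 (3.18%), and 24 (88.9%) had a fold above 0.5 in each list, against 22.9%. The median of their mean folds was 2.25 against 0.50 over all such sites, while the median SD between lists was 0.895 against 0.820. Ranked by fold, the 27 sites correlated with a Spearman rho between 0.277 and 0.647 over the 6 pairs of lists, against 0.463 to 0.477 over the 49493 sites. These are descriptions over sites that share libraries, in a gene chosen for its high fold. The 27 sites include the leading region that it was chosen for.

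**Figure D4:**
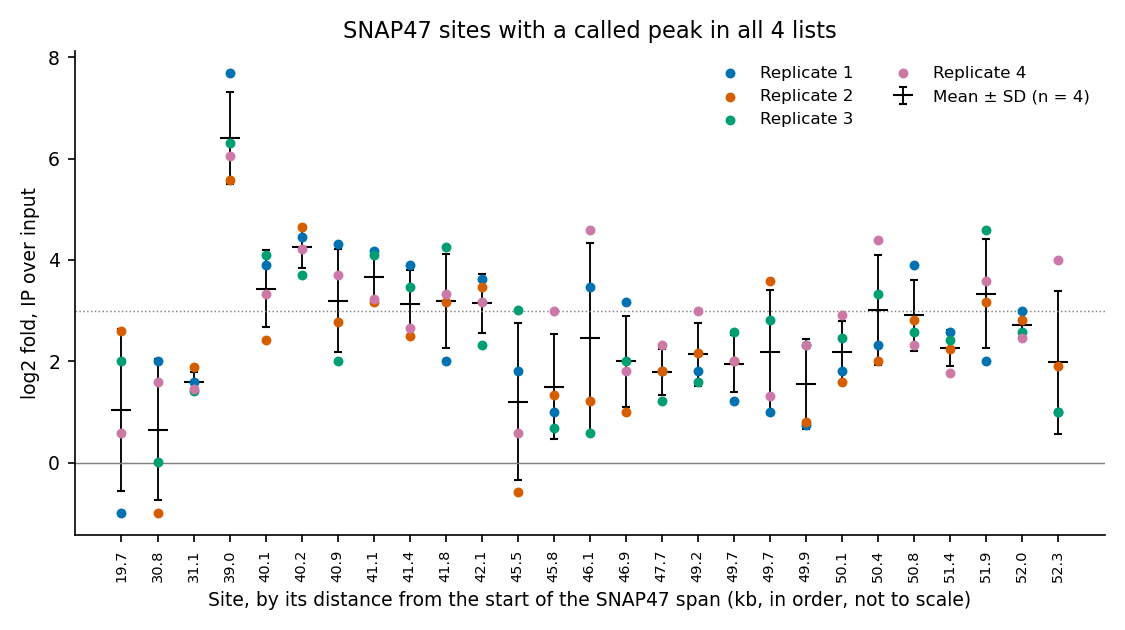
Log2 fold in each replicate (points) and its mean with SD (n = 4) for the SNAP47 sites called in all 4 lists, ordered along the gene. The means run from 0.65 to 6.41, and the highest belongs to the leading region.

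SNAP23 had 20 sites, of which 3 (15%) were called in all 4 lists. The highest, chr15:42521720-42521836, had log2 folds of 2.00, 2.32, 1.32 and 1.00, a mean of 1.66 ± 0.61, with a −log10 p of 0.426, 0.904, 0.539 and 0.163. It was above input in each list, yet no −log10 p came near 3. At chr15:42521546-42521605 the mean was 0.00 ± 0.82, and at chr15:42513340-42513445 it was −1.04 ± 0.75. SNAP29 had 27 sites, of which 1 (3.70%) was called in all 4 lists, chr22:20887675-20887802, with folds of −1.59, 0.00, 1.00 and −0.00 and a mean of −0.15 ± 1.07, within its spread of 0.

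The strand opposite to SNAP47 gave no enriched peak. It held 11, 13, 12 and 10 called peaks in replicates 1 to 4, all within 6921 nt of the span start, with folds of at most 2.32, 1.59, 1.59 and 2.17. Of these, 11, 12, 10 and 7 lay in JMJD4 (chr1:227731191-227735302, minus strand), a gene of the jumonji-domain hydroxylase family that overlaps the start of SNAP47. The enriched SNAP47 regions lay far from that overlap, from 38952 nt onward. The spans of SNAP23 and SNAP29 held no called peak on the opposite strand.

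Among all genes, ordered by the mean fold of their best region enriched in all 4 replicates, the neighbours of SNAP47 (6.41 ± 0.91) were TBCD, a tubulin folding cofactor (6.56 ± 0.80), CARS2, the mitochondrial cysteinyl-tRNA synthetase (6.54 ± 0.49), and DIP2C (6.47 ± 0.94) above it. Below it came NXN, nucleoredoxin (6.30 ± 0.33), CABLES1, a CDK5 and ABL1 substrate (6.19 ± 0.36), and HDAC4, a class IIa histone deacetylase (6.05 ± 0.67). These differences from SNAP47 are smaller than the SD between replicates.

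The rest of the fusion machinery was followed in a list of 53 genes for syntaxins, VAMPs, other SNAREs, SM proteins, complexins and the NSF disassembly machinery. Of the 44 with a known strand, 36 had a called peak, and 0 of these held a region enriched in all 4 replicates, against 1.94% of all such genes. An enriched peak in at least 1 list was found in 3 of the 36 (8.33%), against 7.95% of all genes, so the list stands at the background. The 3, named after their values were seen, were STX1A, the plasma membrane syntaxin that pairs with SNAP25, STX4, a syntaxin that pairs with SNAP23, and VAMP2, the synaptic vesicle R-SNARE. STX1A had 1, 1, 0 and 1 enriched peaks and a median fold of 1.00, 2.16, 2.16 and 1.95 (1.82 ± 0.56). STX4 had 1, 0, 1 and 0 and a median of 1.47 ± 0.67, and VAMP2 0, 0, 0 and 1 and a median of 0.93 ± 0.63.

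A large number of called peaks did not go with enrichment in this list. STX18, a syntaxin of the endoplasmic reticulum, had 62, 57, 60 and 67 called peaks (61.5 on average), close to SNAP47, and 0 enriched. Over the genes of the list with a peak in each replicate, the median of the mean median fold was 0.000205, the same as over 10099 genes. Of these 34 genes it was above 0.5 in 5, within 0.01 of 0 in 20 and below −0.01 in 5, and between 0.01 and 0.5 in the rest. The same shares over the 10099 genes were not computed, so these counts cannot be set against a background. The 9 genes of the list without a known strand had called peaks and 0 enriched ones on either strand.

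**Figure D5:**
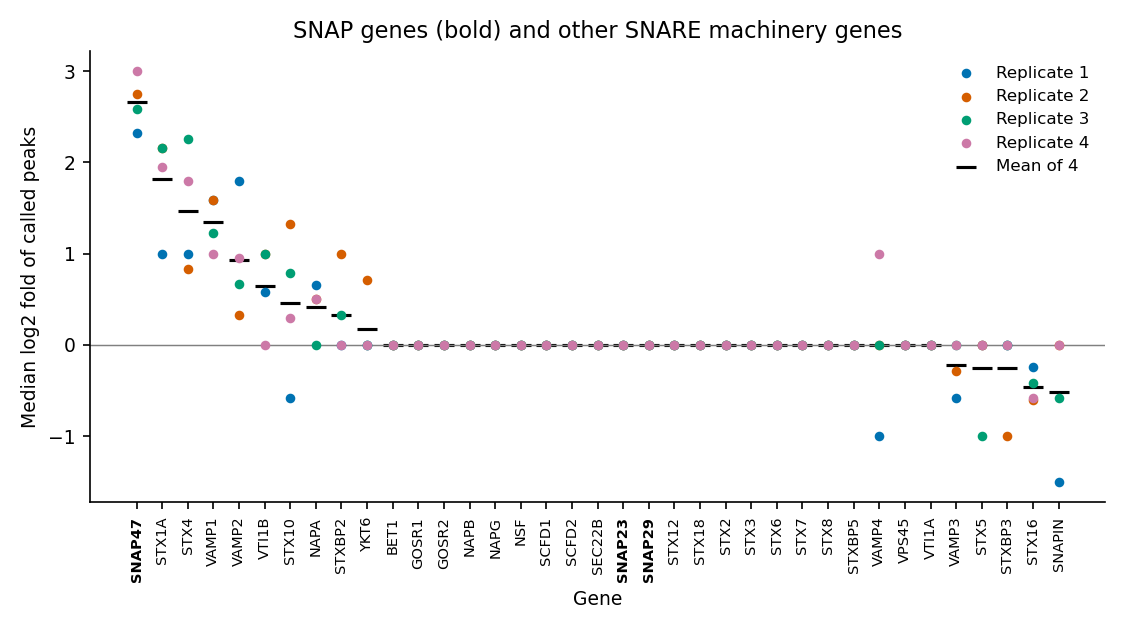
Median log2 fold of called peaks per replicate (points) for the genes of the fusion machinery and the SNAP members, ordered by mean. SNAP47 at 2.66 stands at the top and STX1A at 1.82 is the next highest.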

How the data were processed

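RBFOX2 eCLIP libraries from HEK293T cells were used as the 4 deposited peak lists, 1 per replicate, each comparing an IP with its input. The submitters' processing notes name UMI-tools 1.1.1, cutadapt 3.2, STAR 2.7.7a and the builds hg38 and GRCh38.p13, with no roles; the peak caller is not given in the sources used here. The deposited columns carry no names. From their values, the authors' lists hold a −log10 p (at most 400) and a log2 fold of IP over input; whether p was adjusted is unknown. Coordinates are printed from 1 on hg38. Gene spans and strands come from RefSeq tables (GRCh38.p14), which gave no strand for SNAP25. Peaks were assigned by midpoint and strand, and enrichment was a log2 fold of at least 3 with a −log10 p of at least 3, limits customary for eCLIP that the labels do not state. Regions were merged by at least 1 nt of overlap. Values are means ± SD over 4 lists. No test was run, because the fold chose the members. The members, gene list and limits were chosen with earlier results of these data known. Named were the 4 members, any listed gene with a region enriched in all 4 lists, and the 3 neighbours of SNAP47 on either side by best region; STX1A, STX4, VAMP2 and STX18 were named after their values were seen. Python 3.11.15, numpy 2.4.6, pandas 2.3.3 and scipy 1.17.1 were used, with scripts tested on simulated data. Depth is unknown, so no counting interval is given.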

Additional observations from a re-analysis of the deposited data

Results flagged for a closer look

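Among the members' values examined, 1 stood apart in its group of 4 replicates. SNAP23 had 11 called peaks in replicate 1 against 9 in each of the other lists. None of these peaks was enriched in any list. Of the 47 groups of 4 values examined, chance alone flags about 1 in 20.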

How the results depend on the processing

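Of 112 alternative values over 14 results, 104 stayed close to the reported value, 8 moved and 0 reversed. Many could hardly move, as the counts of enriched peaks in SNAP23, SNAP25 and SNAP29 were 0 throughout. So were the SNAP25 called peaks and the fusion machinery genes with a region enriched in all 4 replicates. The SNAP23 and SNAP29 medians, 0.000205, lay too near 0 to be labelled reversed, and without replicate 2 both were −0.000197. The median log2 fold of SNAP47 was 2.26 with both strands and 3.001 as a mean over peaks in place of a median. For SNAP23 the mean over peaks was 0.0864 and the median of peaks with a −log10 p above 0 was 1.33, and for SNAP29 these were −0.0564 and 1.44, the last from 2 lists only. The 3 SNAP47 regions enriched in all 4 replicates became 14 where peaks had to overlap by at least 50% of both lengths, which splits tiled peaks apart, and ranged from 3 to 6 when 1 replicate was left out, the 6 without replicate 1 counting 3 pieces of the leading region. The fold of the leading region ranged from 5.98 to 6.68 when 1 replicate was left out. With a limit of 5 on −log10 p, SNAP47 kept 20.75 enriched peaks on average and 3 regions. Enrichment as at least 8-fold over the commonest fold was chosen after seeing the data. No paired analysis was possible because every fold already sets an IP against its own input, which leaves no unpaired values to compare. GCATG in the regions and exon or intron positions were not run.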
